A study of Mus musculus with 6 samples.

Results

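The constitutive proteasome genes are the genes for the standard protein-degrading complex of the cell, together with its activators, its inhibitor and the chaperones that help to assemble it. They were chosen by symbol alone, as every gene of the deposited table whose name begins with Psma, Psmb, Psmc, Psmd, Psme, Psmf or Psmg followed by a digit. Psmb8, Psmb9 and Psmb10, the catalytic subunits of the immunoproteasome, and names of pseudogenes were left out. The rule found 46 of the 13008 genes. Of these, 15 carried names of the core particle (Psma and Psmb), 7 of the ATPases (Psmc), 14 of the non-ATPases (Psmd) and 10 of the activators or chaperones (Psme, Psmf and Psmg).

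The genes were measured by RNA-seq in macrophages (MPs) sorted from mouse skeletal muscle on day 5 after an injury with cardiotoxin, a snake venom toxin that kills muscle fibers. The sorted cells were F4/80+ and Ly6C-low, that is, they carried a macrophage surface protein and little of a marker of inflammatory monocytes, and by the study's account they were also GFP+. The comparison asked how the loss of Cripto, a membrane protein encoded by Tdgf1, in myeloid cells changes gene expression in these MPs. There were 3 Control and 3 Cripto KO samples, all from male C57BL/6J mice of 3 months according to the labels. The labels give the Control genotype as wild type, whereas the study describes its GFP-Control mice as Tg:LysMCre::R26mTmG. The Cripto KO samples are labelled Tg:LysMCre::Cripto-/-, and the study describes these mice as Tg:LysMCre::R26mTmG::Cripto fl/fl. Thus, by the study's account, both groups carried the Cre transgene and the reporter, and all mice had the same injury. LysMCre is active in the myeloid lineage, so the deletion is restricted to these cells, and by the study's account it was not complete in the GFP+ population. Tdgf1 was not analysed here, and the labels were therefore not checked against the deleted gene.

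The proteasome degrades proteins that have been tagged with ubiquitin. Its core particle is a barrel of stacked rings, with alpha subunits in the outer rings that form the gate and beta subunits in the inner rings, some of which carry the catalytic sites. A regulatory particle sits on the end of the barrel. Its base holds a ring of ATPases that unfold the substrate, and its lid removes the ubiquitin chain. In MPs the complex also produces peptides for antigen presentation, and cytokines such as interferon-gamma exchange its catalytic subunits for those of the immunoproteasome. When proteasome activity is short, the transcription factor NFE2L1 raises the genes of the subunits together.

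NFE2L1 and its relative NFE2L2 bind antioxidant response elements, and the core of this element, TGACNNNGC, was therefore searched on both strands of the promoters. A promoter was the stretch from 250 bases before to 50 bases after the start site in the RefSeq table (GRCm38.p6). A promoter was given for 38 of the 46 genes, and 6 of these (15.79%) held the word. The share was 17.18% of the 9537 genes of the deposited table with a promoter, and 13.99% of all 27025 genes with one. The 6 matches are shown with up to 20 bases on each side, because they show which members of the module hold the word and how it differs between them. Each sequence is written 5′ to 3′ on the strand of its gene and capitals mark the word, which reads TGACNNNGC in Psmb5, Psmb6 and Psmd9 and is its reverse complement in Psmc6, Psmd12 and Psme4.
Psmb5 (chr14:54618014-54618062, minus strand): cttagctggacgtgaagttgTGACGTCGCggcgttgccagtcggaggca
Psmb6 (chr11:70525328-70525366, plus strand): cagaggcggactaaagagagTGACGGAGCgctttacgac
Psmd9 (chr5:123228139-123228187, plus strand): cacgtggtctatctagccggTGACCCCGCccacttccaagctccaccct
Psme4 (chr11:30771748-30771784, plus strand): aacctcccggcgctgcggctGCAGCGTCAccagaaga
Psmc6 (chr14:45329577-45329625, plus strand): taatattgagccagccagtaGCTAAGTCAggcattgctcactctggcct
Psmd12 (chr11:107479278-107479309, plus strand): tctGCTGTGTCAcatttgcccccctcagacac

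The first base of the word lay 47, 9 and 31 bases before the start site in Psmb5, Psmb6 and Psmd9, 7 bases before it in Psme4, and 227 and 247 bases before it in Psmc6 and Psmd12. These are start sites of RefSeq. In the GENCODE annotation (release M21), the printed stretches of Psmb5, Psmd9 and Psme4 overlap the gene itself, and that of Psmd9 also overlaps Gm26745. The genes that held the word thus came from each of the 4 groups. Among other words, CCAAT was found in 13 promoters of the module (34.21%, and 42.81% of the genes of the table) and the GC box GGGCGG in 22 (57.89%, and 67.65%). The core of the heat-shock element, GAANNTTC, was found in 2 (5.263%, and 7.088%), and the core of the interferon-stimulated response element in 5 (13.16%, and 4.121%). A match describes letters in this window and not a bound site.

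Whole reads were recovered from the deposited values, and their totals were between 12688968 and 15659847 per sample. At this depth, 3 reads of a gene came to a value of 0.222 to 0.286, and this was taken as the floor of detection. One Control sample stood apart from the others by Xist, with 171 in Control replicate 1 against 0.114 to 0.885 elsewhere, while all mice are labelled male. Another stood apart by Lyz2, a lysozyme gene of myeloid cells and the locus that gives LysMCre its name, with 11066 in Control replicate 2 against 21.2 to 28.3 elsewhere. All 10 macrophage markers were measured and 0 had an unadjusted p under 0.05 in limma (1 in edgeR, 0 in DESeq2), with a summed value of 13220 to 24285 in Control against 12485 to 13677 in Cripto KO samples. Lyz2 is one of these markers, and without it the sums were 13198 to 13361 against 12458 to 13649. Of the markers of other cells, 6 of 9 muscle fiber genes were higher in Control at an unadjusted p under 0.05, where 4.6% of all genes were (summed value 40.3 to 86.9 against 19.8 to 58.8). Of these, Myh1 and Myh4 were under the floor in some Cripto KO samples, at the lowest 0.0354 and 0.103. At an unadjusted p under 0.05 there were 3 in edgeR and 2 in DESeq2. In limma there were 1 to 7 when each sample was left out, with 1 without Control replicate 1 or Cripto KO replicate 2. Of the fibroblast genes, 7 of 10 were higher in Cripto KO samples at the same limit, where 3.99% of all genes were (860 to 937 against 993 to 1091), with 7 in edgeR and 4 in DESeq2. Of the endothelial (8), neutrophil (7) and lymphocyte (2) markers measured, 0 had an unadjusted p under 0.05 in limma, edgeR or DESeq2. The part of these other cells in the results for the proteasome genes was not tested.

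No proteasome gene passed the test between Control and Cripto KO MPs. With limma, 0 of the 46 genes had an adjusted p under 0.05, as against 17 genes (0.131%) of the whole table, and the smallest adjusted p of the module was 0.559. The edgeR test and DESeq2 on the recovered reads also called 0 members at an adjusted p under 0.05. At an unadjusted p under 0.05, 1 member was found by limma, which was Psmc4, a subunit of the ATPase ring, and 8.59% of all genes lay under the same limit. Psmc4 was on the side of Cripto KO, where 3.99% of all genes lay under this limit, and 0 members were on the side of Control, where 4.6% did. The limit was met by 1 member in edgeR and by 0 in DESeq2. In limma it was met by 1 (Psmb5) without Control replicate 1 and by 2 (Psmc3ip and Psmd5) without Control replicate 2, and 0 had an adjusted p under 0.05 without either sample. The 46 genes lie on 16 chromosomes, with 0 of them within 10 Mb of Tdgf1. Because the RNA came from bulk samples of sorted cells, fewer cells of a type and less RNA per cell cannot be told apart in any of these values.

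The summed expression of the module overlapped between the groups. The summed normalized value of the 46 genes was 3416, 3476 and 3499 in the Control samples and 3414, 3506 and 3465 in the Cripto KO samples. The lowest and the highest sums were both in Cripto KO samples. The 46 genes took 0.328%, 0.335% and 0.338% of the recovered reads in the Control samples and 0.343%, 0.337% and 0.343% in the Cripto KO samples. In this share, Control replicate 3 was above Cripto KO replicate 2, and the other Control samples were below all Cripto KO samples. The median deviation of the genes from their mean over the 6 samples was -0.04, 0.02 and -0.01 on the log2 scale in the Control samples and -0.02, 0.02 and 0.01 in the Cripto KO samples. Control replicate 1 had the lowest median, and Cripto KO replicate 1, which was the lowest sample for 13 genes, was also the highest for 10.

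**Figure D1:**
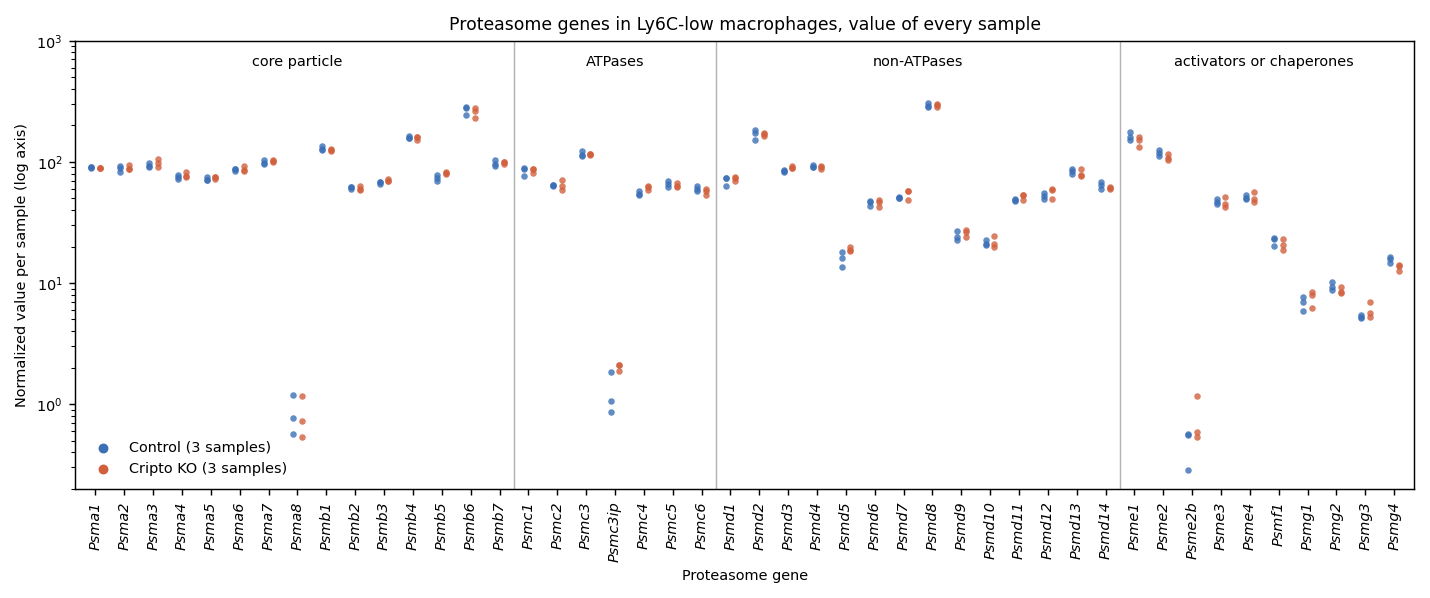
Normalized value of each of the 46 proteasome genes in every sample (log axis), with 1 point per sample, 3 Control and 3 Cripto KO, by group and name. Values run from 0.286 for the lowest sample of Psme2b to 306 for the highest of Psmd8, and the samples of a gene are spread widest on this axis at Psma8, Psmc3ip and Psme2b, the 3 lowest genes.

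The log2 fold change (Control/Cripto KO) had a median of -0.01 over the 46 genes, beside 0.01 over all 13008 genes. By group, the median was -0.01 for the core particle, -0.01 for the ATPases, -0.04 for the non-ATPases and 0.07 for the activators or chaperones. Without Control replicate 1 the median was 0.01 over the 46 genes and 0.005, 0.04, 0.01 and 0.07 in these groups, so that the sign turned in all but the activators or chaperones. In all, 21 genes were on the side of Control and 25 on the side of Cripto KO, where 47.4% of all genes were. The number on the side of Cripto KO was 35 with quantile normalization, 30 in the edgeR fit of the recovered reads and 19 without Control replicate 1. The absolute log2 fold change had a median of 0.06 over the members and 0.12 over all genes. Among genes with a mean normalized value of at least 10, it was 0.04 over 40 members and 0.09 over all genes of that level. The median of the mean values was 74.8 for these members and 38.8 for all such genes, so that the level was not matched.

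The samples of the groups did not overlap for 7 of the 46 genes (15.2%), beside 14.5% of all genes. Of these, 6 were higher in Cripto KO MPs (Psmb3, Psmb5, Psmc3ip, Psmc4, Psmd3 and Psmd5), where the share over all genes was 6.43%, and 1 was higher in Control (Psmg4), where it was 8.02%.

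The precision of the fold changes could be given as an interval. For 35 of the 46 genes (76.1%), the 95% interval of the log2 fold change lay between -0.32 and 0.32, as compared with 29.4% of all genes. The count was 14 of 15 in the core particle, 5 of 7 in the ATPases, 13 of 14 in the non-ATPases and 3 of 10 in the activators or chaperones. Of the 31 genes of the module that encode subunits of the complete proteasome, 30 had such an interval, and the exception was Psmc4. Its lower bound, at -0.3229, lay just past the limit, which was 0.3219 in absolute size. Subunit genes outside the naming rule are not counted here, such as Adrm1 (interval from -0.33 to 0.03) and Sem1 (-0.11 to 0.18). These 31 genes had fold changes between -0.16 and 0.08 on the log2 scale. The level of expression enters these counts, since 40 of the 46 genes had a mean value of at least 10. Among genes of that level the share was 87.5% for the members and 49.3% for all genes. The limit does not match the level, since the median of the mean values was 74.8 for these members and 38.8 for all such genes. The spread between replicates was also smaller, again without a match in level. The median SD within groups on the log2 scale was 0.08 for members of that level and 0.12 for all such genes.

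**Figure D2:**
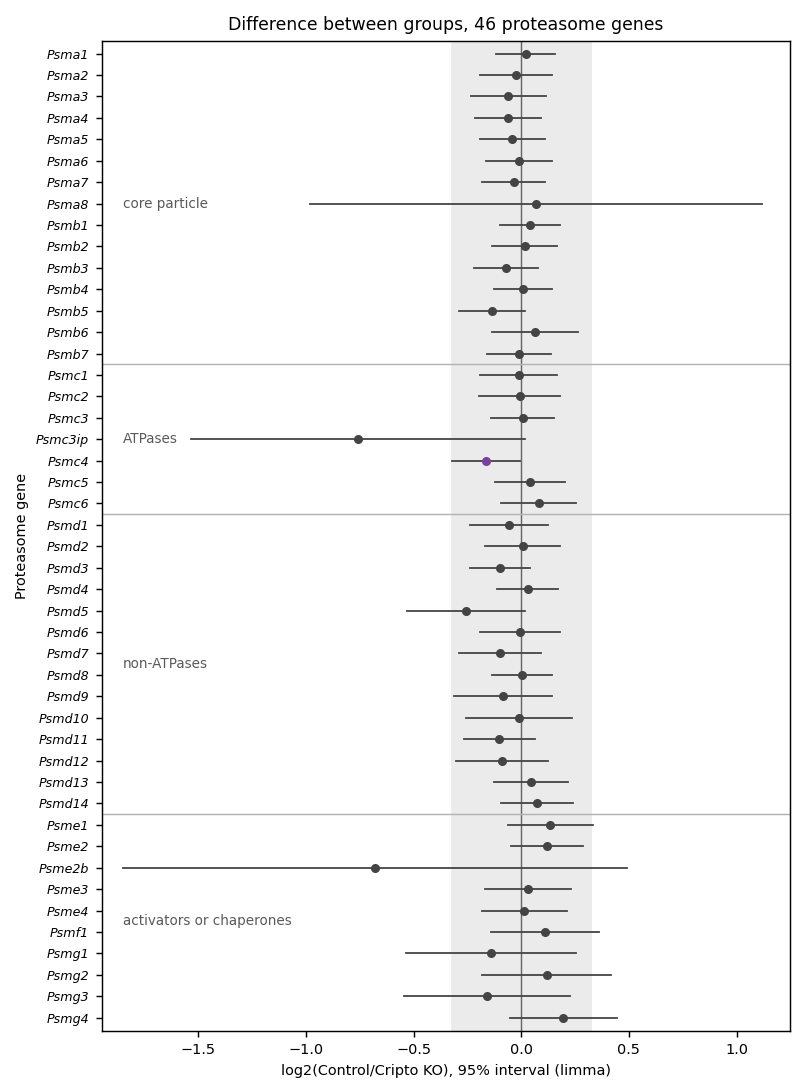
Log2 fold change (Control/Cripto KO) of the proteasome genes with its 95% interval from limma (3 samples per group), by group and name, with the range from -0.32 to 0.32 shaded. The interval lies inside the shaded range for 35 of 46 genes, and Psmc4 is the gene with an unadjusted p under 0.05.

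In the core particle, the alpha subunits Psma1 to Psma7 form the outer rings and the gate. All 7 had fold changes between -0.06 and 0.02 on the log2 scale. Psma8, which encodes an alpha subunit of the testis, lay between 0.531 and 1.18 in the 6 samples, close to the limit of detection. Of the beta subunits, Psmb1, Psmb2, Psmb3 and Psmb4 have no catalytic site. Psmb3 was 68.4, 68.5 and 65.4 in the Control samples and 70.0, 72.7 and 69.8 in the Cripto KO samples. The groups did not overlap, and the log2 fold change was -0.07 ± 0.07 (SE, n = 3 per group, limma adjusted p = 0.80).

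The remaining beta subunits carry the catalytic sites. Psmb5, which carries the chymotrypsin-like activity and is the site bound by bortezomib, had normalized values of 77.3, 69.4 and 73.2 in the Control samples and of 82.0, 79.2 and 80.4 in the Cripto KO samples. All Cripto KO samples were above all Control samples. The log2 fold change was -0.14 ± 0.07 (SE, n = 3 per group), with an adjusted p of 0.64 by limma, and it was between -0.18 and -0.10 when each sample was left out in turn. Without Control replicate 1 its unadjusted p by limma was 0.035, with an adjusted p of 0.445. The transcripts of Psmb5 share 71.7% of their words of 31 bases with other genes, mostly with the pseudogene Gm3375, and reads may have been divided between the copies.

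Psmb6, which carries the caspase-like activity, was 284, 244 and 279 in the Control samples and 232, 265 and 276 in the Cripto KO samples. Its samples overlapped, and the log2 fold change of 0.06 ± 0.09 (SE) turned to -0.01 without Cripto KO replicate 1. Psmb7, the subunit with the trypsin-like activity, was 92.9, 96.9 and 103 in the Control samples and 96.3, 99.0 and 99.2 in the Cripto KO samples. The Cripto KO samples lay within the range of the Control samples, and the log2 fold change was -0.01 ± 0.07 (SE).

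In the ATPase ring of the base, Psmc4 (GRCm38, chr7:28041707-28050101) was 54.1, 53.3 and 56.9 in the Control samples and 62.3, 63.2 and 58.8 in the Cripto KO samples. All Cripto KO samples were higher than all Control samples. The log2 fold change was -0.16 ± 0.07 (SE, n = 3 per group), with a 95% interval from -0.32 to -0.01, an unadjusted p of 0.043 and an adjusted p of 0.559 by limma. Over all alternatives, the adjusted p of Psmc4 was between 0.469 and 0.957. The fold change was between -0.20 and -0.14 when each sample was left out in turn. The unadjusted p by limma was under 0.05 in only 1 of these 6 fits (0.049 to 0.123). It was also above 0.05 with DESeq2, with the replicate block, without the variance trend and with a mean value of at least 1. It was under 0.05 with a pseudocount of 0.5 or 1, median centring, quantile normalization, voom weights, edgeR and a block on the supplementary sample numbers.

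Each of the other ring subunits had overlapping groups. Psmc6 was 59.7, 62.6 and 58.0 in the Control samples and 53.1, 57.5 and 60.1 in the Cripto KO samples, with overlapping groups and a log2 fold change of 0.08 ± 0.08 (SE). Psmc3 lay between 111 and 123 in all samples, with a fold change of 0.01 on the log2 scale. Psmc1, Psmc2 and Psmc5 had log2 fold changes between -0.01 and 0.04. Psmc3ip is named like an ATPase but encodes a protein of meiotic recombination that binds one, and it was low, at 1.07, 1.85 and 0.857 in the Control samples and at 1.87, 2.09 and 2.10 in the Cripto KO samples. Its groups were separated by a narrow gap between Control replicate 2 and Cripto KO replicate 1. The log2 fold change was -0.76 ± 0.34 (SE, n = 3 per group, limma adjusted p = 0.59), and without Control replicate 2 it was -1.08, with an unadjusted p of 0.01 and an adjusted p of 0.525.

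In the non-ATPases of the base, Psmd4, which encodes a receptor for ubiquitin chains, was 91.4, 90.2 and 94.5 in the Control samples and 87.6, 92.3 and 90.6 in the Cripto KO samples. The groups overlapped and the log2 fold change was 0.03 ± 0.06 (SE). The scaffold genes Psmd1 and Psmd2 had log2 fold changes of -0.06 and 0.01. Control replicate 1 was the lowest sample for both of them.

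In the lid, Psmd14, the metalloprotease that cuts the ubiquitin chain from the substrate, was 59.6, 68.0 and 64.9 in the Control samples and 62.2, 60.5 and 60.1 in the Cripto KO samples. Its samples overlapped, with the lowest value in Control replicate 1, and the log2 fold change was 0.07 ± 0.07 (SE, limma adjusted p = 0.819). Psmd3, a structural subunit, was 83.5, 85.1 and 82.7 in the Control samples and 91.8, 88.4 and 89.1 in the Cripto KO samples. These groups did not overlap, and the log2 fold change was -0.10 ± 0.06 (SE, limma adjusted p = 0.696). Psmd11, whose product clamps the lid to the core particle, was 49.7, 48.2 and 47.5 in the Control samples and 53.8, 48.9 and 53.7 in the Cripto KO samples. Control replicate 1 was above Cripto KO replicate 2, and the log2 fold change was -0.10 ± 0.07 (SE). Psmd8, the most abundant transcript of the lid, lay between 284 and 306 in all samples.

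Psmd5, Psmd9 and Psmd10 carry non-ATPase names but encode chaperones that assemble the base and leave it afterwards. Psmd5 had the largest absolute fold change among the members with a mean value of at least 10, at 13.7, 18.1 and 16.0 in the Control samples and 18.4, 18.6 and 19.7 in the Cripto KO samples. All Cripto KO samples were above all Control samples, although Control replicate 2 was close to them. The log2 fold change was -0.26 ± 0.12 (SE, n = 3 per group), with an adjusted p of 0.619 by limma. It was -0.35 without Control replicate 2, with an unadjusted p of 0.02 and an adjusted p of 0.585, and -0.15 without Control replicate 1. Psmd9 and Psmd10 had log2 fold changes of -0.09 and -0.01.

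Among the activators, Psme1 and Psme2 encode both chains of PA28 alpha beta, a cap of the core particle that interferon-gamma induces. Psme1 was 175, 162 and 153 in the Control samples and 152, 161 and 133 in the Cripto KO samples. Psme2 was 124, 118 and 113 in the Control samples and 107, 117 and 103 in the Cripto KO samples. For both genes, Control replicate 1 was the highest and Cripto KO replicate 3 the lowest sample, and Cripto KO replicate 2 lay among the Control samples. The log2 fold changes were 0.14 ± 0.09 and 0.12 ± 0.07 (SE, n = 3 per group), with adjusted p-values of 0.711 and 0.708 by limma. The low copy Psme2b, between 0.286 and 1.17, shares 78.4% of its words of 31 bases with other genes, mostly Psme2, and its level is uncertain.

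Psme3, which encodes the nuclear activator PA28 gamma, was 44.9, 49.3 and 46.6 in the Control samples and 51.0, 42.8 and 44.5 in the Cripto KO samples. Psme4, the gene of PA200, a large single-chain activator, ranged from 49.4 to 53.2 in the Control samples and from 46.3 to 56.0 in the Cripto KO samples. For both, the highest and the lowest samples were Cripto KO samples, and the log2 fold changes of 0.03 and 0.01 changed sign when single samples were left out. Psmf1, the gene of the inhibitor PI31, was 20.3, 23.7 and 23.0 in the Control samples and 22.9, 18.8 and 20.5 in the Cripto KO samples, with a log2 fold change of 0.11 ± 0.11 (SE).

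The chaperones that assemble the core particle, Psmg1 to Psmg4, were low, and those other than Psmg4 lay between 5.11 and 10.2. Psmg4 was 15.7, 16.2 and 14.5 in the Control samples and 14.1, 13.9 and 12.6 in the Cripto KO samples. It was the gene of the module whose Control samples all lay above the Cripto KO samples, and its log2 fold change was 0.20 ± 0.11 (SE, n = 3 per group, limma adjusted p = 0.682). Psmg1 and Psmg3 were on the other side, at -0.14 and -0.16 on the log2 scale, and Psmg2 was at 0.12. Pomp, a chaperone of the same step outside the naming rule, was 123, 124 and 137 in the Control samples and 114, 131 and 118 in the Cripto KO samples, with overlapping groups and a log2 fold change of 0.08 (limma adjusted p = 0.815).

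Levels were compared between genes as mean normalized values per kb, with the median length of the basic coding transcripts of GENCODE (release M21). The alpha subunits lay between 30.5 (Psma2) and 96.6 (Psma7) per kb, with a median of 65.5. The beta subunits lay between 71.0 (Psmb2) and 330 (Psmb6), with a median of 90.2. The ATPases of the ring were lower, between 26.2 (Psmc6) and 71.1 (Psmc3) with a median of 46.3, and the lid lay between 22.5 (Psmd11) and 192 (Psmd8) with a median of 36.8. Transcripts of subunits that stand in equal number in the complex thus differed by up to 4.65-fold within the beta ring and 8.54-fold within the lid. The assembly chaperones were lower still, at 3.96 to 15.3 per kb for those of the base and at 6.93 to 28.2 for those of the core particle. The activators were spread widely, from 219 for Psme1 and 129 for Psme2 to 17.5 for Psme3 and 7.81 for Psme4, and the inhibitor Psmf1 was at 8.29. With the length of all exons joined in place of the transcripts, an alternative chosen after seeing the data, the medians were 32.2, 50.7, 35.3 and 21.3 per kb for the alpha, beta, ATPase and lid subunits, so that the order of the alpha subunits and the ATPases was reversed. Psmb6 remained the highest, at 141 per kb, while Psme1 was at 70.6.

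**Figure D3:**
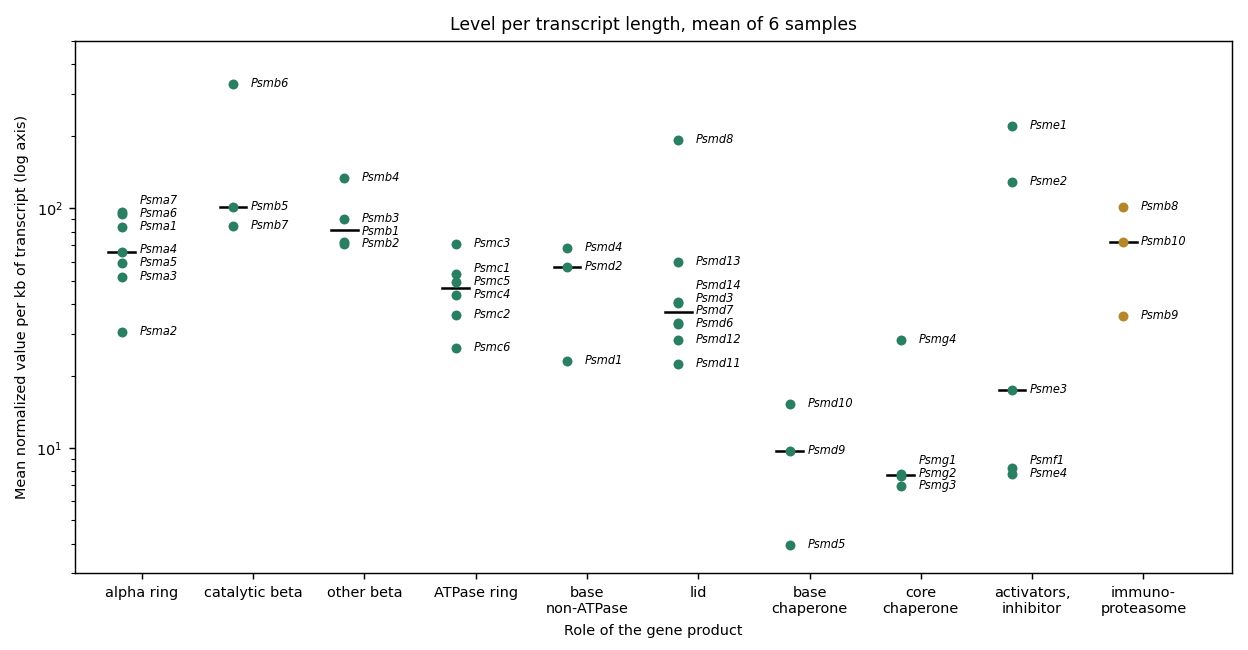
Mean normalized value over the 6 samples per kb of transcript (log axis) of the proteasome genes by role, with 1 point per gene and a bar at the median of each role, beside the immunoproteasome subunits Psmb8, Psmb9 and Psmb10 (Psma8, Psmc3ip and Psme2b, all low, are not drawn). Psmb6 is highest, at 330 per kb, and the assembly chaperones lie between 3.96 and 28.2 per kb.

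The catalytic subunits of the immunoproteasome take the place of those of the constitutive core, Psmb8 for Psmb5, Psmb9 for Psmb6 and Psmb10 for Psmb7, so that the ratio of each pair was examined in every sample. Psmb8 was 189, 172 and 158 in the Control samples and 162, 153 and 160 in the Cripto KO samples. Psmb9 was 53.9, 52.3 and 44.8 in the Control samples and 52.5, 43.0 and 42.6 in the Cripto KO samples. Psmb10 was 109, 98.0 and 91.2 in the Control samples and 88.9, 93.1 and 88.3 in the Cripto KO samples. In each of these genes Control replicate 1 was the highest sample and the groups overlapped. The log2 fold changes were 0.13, 0.13 and 0.14, with adjusted p-values of 0.692, 0.776 and 0.688 by limma.

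The log2 ratio of Psmb5 to Psmb8, per kb, was -0.20, -0.21 and -0.01 in the Control samples and 0.12, 0.15 and 0.11 in the Cripto KO samples. All Cripto KO samples were above all Control samples. With these lengths Psmb5 was 47.6% ± 1.87 of both transcripts in Control and 52.1% ± 0.36 in Cripto KO MPs (SD, n = 3 per group). With all exons joined, a length chosen after seeing the data, the log2 ratio was above 0 in all samples (0.61 to 0.96) and the shares were 61.5% ± 1.77 and 65.7% ± 0.32. The choice of length does not enter the difference between the groups. The difference (Control minus Cripto KO) was -0.26 on the log2 scale, with p = 0.1 in an exact permutation test, two-sided, which is the smallest p that 3 against 3 samples allow (adjusted p = 0.3 over the 3 ratios). It was between -0.33 and -0.23 when each sample was left out in turn. The shared sequence of Psmb5 applies here too, and so do 13.7% of words of Psmb8 that other genes share.

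The log2 ratio of Psmb6 to Psmb9, per kb, was 3.16, 2.98 and 3.40 in the Control samples and 2.90, 3.38 and 3.45 in the Cripto KO samples. The samples overlapped, and the difference of -0.07 had p = 0.9 in the same exact permutation test (adjusted p = 0.9). The log2 ratio of Psmb7 to Psmb10 was -0.05, 0.16 and 0.35 in the Control samples and 0.29, 0.27 and 0.35 in the Cripto KO samples. Control replicates 1 and 2 were below all Cripto KO samples and Control replicate 3 was above them, and the difference of -0.15 had an exact permutation p of 0.4 (adjusted p = 0.6). As a share of each pair per kb, Psmb6 ranged from 88.8% to 91.3% in Control and from 88.2% to 91.6% in Cripto KO MPs, and Psmb7 was 52.6% ± 3.44 and 55.2% ± 0.69 (SD, n = 3 per group). With all exons joined, Psmb7 was 33.0% ± 3.04 and 35.2% ± 0.64, so that which subunit of this pair was more abundant depended on the length, whereas Psmb6 was 91.2% ± 1.15 and 91.5% ± 1.68.

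**Figure D4:**
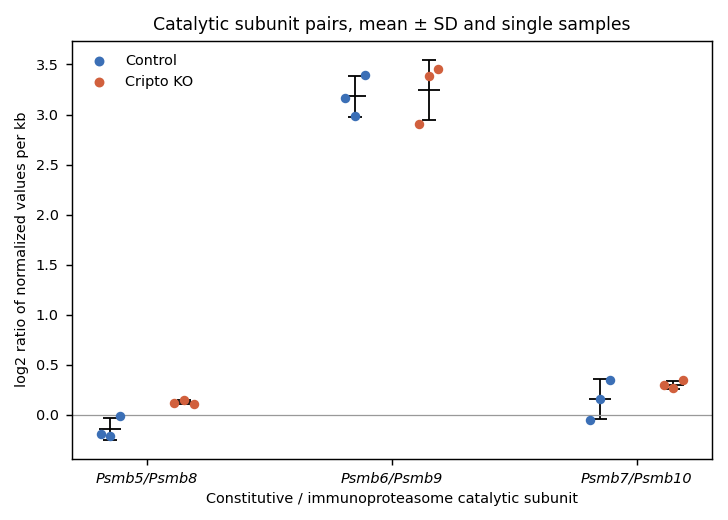
Log2 ratio of the constitutive to the immunoproteasome subunit, per kb, for the 3 catalytic pairs in each of the 3 Control and 3 Cripto KO samples, with bars at the mean ± SD of each group. The groups are apart for Psmb5 to Psmb8 (-0.21 to -0.01 against 0.11 to 0.15) and overlap for the other pairs.

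The genes that raise or serve the module were examined as lists. Of the transcription factors and processing enzymes that control proteasome genes, 10 of 10 were measured, 0 had an adjusted p under 0.05 in limma, edgeR or DESeq2, and 2 were higher in Control at an unadjusted p under 0.05 in limma, where 4.6% of all genes were (the median log2 fold change of the list was 0.10, beside 0.01 for all genes). Nfe2l1 itself was 100, 103 and 92.3 in the Control samples and 99.5, 104 and 107 in the Cripto KO samples. Its groups overlapped, with a log2 fold change of -0.07. Nfe2l2, the factor of the oxidative stress response, was 621, 564 and 568 in the Control samples and 453, 494 and 498 in the Cripto KO samples. All Control samples were above all Cripto KO samples, and the log2 fold change was 0.28 ± 0.07 (SE, n = 3 per group, limma adjusted p = 0.379). Ngly1, the glycanase that trims NFE2L1 before it can act, was 25.1, 24.3 and 24.4 in the Control samples and 19.5, 20.1 and 17.7 in the Cripto KO samples. These groups were apart as well, with a log2 fold change of 0.37 and an adjusted p of 0.377 by limma.

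Another list held further subunits outside the naming rule and proteins that assemble the proteasome, dock to it or bring substrates to it. Of its genes, 17 of 20 were measured and 1 had an unadjusted p under 0.05 in limma, where 8.59% of all genes did, so that the list did not exceed the background. This was Uchl5, a deubiquitinase of the regulatory particle, at 37.4, 37.2 and 34.0 in the Control samples and 27.1, 33.2 and 29.9 in the Cripto KO samples. The Control samples were all higher, and the log2 fold change was 0.27 (limma adjusted p = 0.51). The median log2 fold change of the list was 0.06. Of the 17 genes, 2 were on the side of Cripto KO, where 47.4% of all genes were, and 5 were with quantile normalization. The 7 ubiquitin genes and E1 enzymes and 9 of 10 genes of p97 and its cofactors were measured, and 0 of either list had an unadjusted p under 0.05, with median log2 fold changes of 0.04 and 0.003. None of these lists had a gene with an adjusted p under 0.05 in edgeR or DESeq2.

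Heat-shock genes, most of them for cytosolic chaperones that refold proteins and in part hand them to the proteasome, were examined as a further list. Like the other lists, it was written with earlier results of these data known. Hspd1 and Hspe1 in this list encode chaperones of mitochondria. Of the 14 genes, all measured, 10 were higher in Cripto KO MPs at an unadjusted p under 0.05 in limma, where 3.99% of all genes were, and the median log2 fold change of the list was -0.36. By adjusted p, 0 of them were under 0.05 in limma and edgeR, each of which called 17 genes of the whole table. In DESeq2, which called 71 of the 13008 genes, 6 were (Dnaja1, Hsp90aa1, Hspa1a, Hspa1b, Hspd1 and Hsph1). The summed normalized value of the 14 genes was 15681 to 18956 in the Control samples and 21426 to 23574 in the Cripto KO samples. The groups did not overlap. Shared sequence was not examined for this list, so that reads of Hspa1a and Hspa1b may not have been separated. Of 12 immediate-early genes, which rise when cells are handled, 1 had an unadjusted p under 0.05 in limma. This was Atf3, higher in Control, where 4.6% of all genes lay under this limit. The median log2 fold change of the 12 genes was 0.06. On the side of Cripto KO were 3 of them, where 47.4% of all genes were, and 5 with quantile normalization.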

How the data were processed

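RNA was taken from sorted MPs with 200 ng per library. According to the study's methods and the submitters' processing notes, the authors trimmed reads with cutadapt 1.7.1, quantified them on the mouse transcriptome (GRCm38) with RSEM 1.2.20 and normalized with LIMMA. In the deposited table, each value is a normalized signal that equals reads plus 0.5, per 1000000 reads of a scaled library size, and whole reads were recovered from 100% of 78048 values within 0.01 read. How RSEM's estimates became whole reads is not given in the sources used here. The recovered reads served for the count tests, in which edgeR (4.0.16) called 17 genes and DESeq2 (1.42.0) called 71.

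Groups were compared with limma 3.58.1 (R 4.3.3) with a variance trend on log2 of the deposited values, over 13008 genes, with Benjamini-Hochberg adjustment. Fold changes are log2(Control/Cripto KO). The study calls the samples biological replicates. Ratios were tested by exact permutation with scipy 1.17.1. The procedure was tested on simulated data.

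The members, the lists and the rule for named genes were chosen with earlier results of these data known. The rule took members with an unadjusted p under 0.05, the 2 largest fold changes (mean value of at least 10) and the highest and lowest levels in each group, the catalytic subunits, listed regulators, and listed genes with an unadjusted p under 0.05. Psmb3, Psmc3ip, Psmd3 and others that stand in counts were named after their values were seen. Members on chromosome 18 have values but no printed sequence. Positions and lengths of genes are from GENCODE M21, and promoters with their positions and start sites are from the RefSeq table.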

Additional observations from a re-analysis of the deposited data

How the results depend on the processing

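In every alternative run, 0 proteasome genes had an adjusted p under 0.05. With 3 samples per group, differences could be missed, so that 0 calls do not show that the members were equal. On simulated data, limma recovered by adjusted p 0% of 200 changed genes at the smallest simulated fold. It recovered 35.5% at the next fold and 88.5% at 2-fold. These rates were not split by level of expression. In low genes such as Psma8 and Psme2b larger differences could be missed too, and counting error is the only error that the floor of 3 reads covers. The number of genes of the whole table at an adjusted p under 0.05 (17) was 6 with quantile normalization, 5 without the variance trend, 9 with voom weights and 71 with DESeq2, and 5 to 31 when each sample was left out. The number of members at an unadjusted p under 0.05 (1) was 2 with a pseudocount of 0.5 or 1, 0 with a mean value of at least 1, 3 with quantile normalization, 3 with voom weights and 0 with DESeq2, and 0 to 2 when each sample was left out. The median log2 fold change of the members was -0.048 with quantile normalization, against 0.001 for all genes. Signs turned for genes with fold changes near 0. Psmc3 was at -0.051 (quantile normalization), -0.0062 (voom), -0.0046 (edgeR) and -0.0031 (DESeq2), and Psmd8 at -0.041, -0.0082, -0.0076 and -0.0060. Psmd4 was at -0.017 with quantile normalization, and Psme4 at -0.0065 with it and at -0.00085 with edgeR. When each sample was left out, the log2 fold change was between -0.21 and 0.37 for Psma8, -0.010 and 0.13 for Psmb6, -0.049 and 0.024 for Psmb7, -0.036 and 0.038 for Psmc3, -0.027 and 0.026 for Psmd8, -0.022 and 0.10 for Psme3 and -0.048 and 0.090 for Psme4, and the difference of the log2 ratio of Psmb6 to Psmb9 between -0.24 and 0.037. The cause was not tested.

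Control and Cripto KO samples share replicate numbers, and whether these numbers pair the samples is not known. Samples with the same number did not deviate together (r between -0.21 and -2.5e-05 across genes, which are not independent replicates). No sample correlated best with its own number. These correlations cannot decide on a pairing, because deviations from the mean of 3 samples depend on each other. With the replicate number as a block, 2 genes of the whole table had an adjusted p under 0.05 and 0 members an unadjusted p under 0.05. The study's supplementary data number the Control samples in another order. A block on those numbers, chosen after seeing the data, gave 11 genes. The blocks called 0 members at an adjusted p under 0.05.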
